A study of Mus musculus with 47 samples.

Results

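The respiratory chain genes were taken by symbol: every gene on the arrays whose annotated symbol begins with Nduf, Sdha, Sdhb, Sdhc, Sdhd, Uqcr, Cox4, Cox5, Cox6, Cox7, Cox8 or Atp5. This gave 83 of the 19596 genes and unnamed probes measured, each represented by its brightest probe. They were 30 genes of complex I, 4 of complex II, 7 of complex III, 18 of complex IV (Ndufa4 included, since it is now placed there), 14 of complex V and 10 assembly factors. The series holds 47 Illumina bead arrays of total RNA from striatum, cortex or cerebellum in 12 groups, with 3 arrays in wild-type control cerebellum and 4 in every other group. The transgenic mice were R6/2(300Q), a model of Huntington's disease whose transgene encodes part of the human huntingtin protein, its glutamine tract lengthened, and both they and the wild-type mice were of the strain CBA x C57BL/6. For each genotype and region a group given the histone deacetylase inhibitor 4b, at 1 mg/ml in solutions that took the place of drinking water, starting at 4 months and lasting 67 days, stood beside a control group. The labels do not say what the control mice drank. They mark both sexes, and they do not tie the regions to animals, so each p-value rests on the variation among arrays of a group, which may be technical. The comparisons ask which of these transcripts differ in the transgenic brain and whether 4b alters them.

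Complexes I and II pass electrons from NADH and succinate, complex III hands them on, complex IV gives them to oxygen, and complex V makes ATP from the proton gradient built on the way. Several subunits of complex IV have a widely expressed isoform and one known from heart and skeletal muscle, and of these Cox6a2 is also found in parvalbumin interneurons of mouse brain. Loss of respiratory chain activity in caudate and putamen is a known feature of human Huntington's disease. The subunits encoded in mitochondrial DNA were not analysed here, so every gene described is nuclear.

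RefSeq promoters (GRCm38.p6, 250 bases before to 50 after the start) were matched by symbol for 68 of the 83 genes, and those of the widely expressed Cox6a1 and of the muscle and ubiquitous isoforms of subunit 7A are shown because these genes are followed across all groups below. They lie at chr5:115348909-115349208 on the minus strand (Cox6a1), chr7:30183921-30184220 on the plus strand (Cox7a1) and chr9:79759804-79760103 on the minus strand (Cox7a2). Capitals mark matches, on either strand, to the NRF1 motif (GCGCA, any base, GCGC) and the ETS motif CCGGAAG.
Cox6a1: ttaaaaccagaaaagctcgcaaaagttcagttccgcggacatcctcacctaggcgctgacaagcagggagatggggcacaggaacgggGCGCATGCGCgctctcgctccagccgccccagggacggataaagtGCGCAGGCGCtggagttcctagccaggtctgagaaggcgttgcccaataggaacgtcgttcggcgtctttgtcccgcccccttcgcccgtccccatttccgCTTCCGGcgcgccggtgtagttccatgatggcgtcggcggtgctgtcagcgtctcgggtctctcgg
Cox7a1: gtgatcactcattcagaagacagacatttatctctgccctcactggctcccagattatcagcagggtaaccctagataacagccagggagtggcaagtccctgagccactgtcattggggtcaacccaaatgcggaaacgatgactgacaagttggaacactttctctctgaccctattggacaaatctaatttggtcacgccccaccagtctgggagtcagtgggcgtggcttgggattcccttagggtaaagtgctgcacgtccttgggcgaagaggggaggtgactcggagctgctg
Cox7a2: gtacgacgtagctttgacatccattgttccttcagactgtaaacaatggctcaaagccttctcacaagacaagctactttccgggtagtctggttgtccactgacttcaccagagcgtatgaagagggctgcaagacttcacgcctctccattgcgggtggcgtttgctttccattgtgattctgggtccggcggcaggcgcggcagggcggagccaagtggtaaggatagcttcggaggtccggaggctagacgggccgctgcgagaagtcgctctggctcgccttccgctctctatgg
The Cox6a1 promoter held 2 matches to the NRF1 motif and 1 to the ETS motif, and those of Cox7a1 and Cox7a2 held none. NRF1 is a known activator of nuclear genes for the respiratory chain. Its motif was in 23.5% of the 68 promoters and in 4.8% of all 27025, the ETS motif in 25.0% and 9.1%, and the YY1 motif AANATGGC in 23.5% and 6.2%. The ERR motif TNAAGGTCA was in 4.4% and 1.3%, the E-box CACGTG in 7.4% and 7.2%, and the MEF2 motif in 0.0% and 0.6%. The matched promoters also had a higher median GC content, 58.8% against 52.7%, and a match is a description of letters, not of binding.

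Most of these genes were bright. The value given below is the normalized log2 intensity of 1 probe, called its level, and levels of different probes are not comparable. In each region 75 of the 83 genes passed the filter on low levels (a mean above 6.78) and were tested. The 8 tested in no region were Ndufs1, Ndufab1, Sdha, Uqcrfs1, Uqcrq, Cox7b2, Cox8c and Ndufaf6. Among tested genes the median level was 13.39 in complex I, 12.71 in complex II, 13.93 in complex III, 13.91 in complex IV, 12.44 in complex V and 11.45 in the assembly factors. Of all 83, 43 lay above 12.28, the 95th percentile of probes, and 18 above 14, while the highest level on any array was 15.05. Whether such bright probes respond in proportion to RNA was not tested. As a background, 10 Y-linked genes averaged 6.36 on the arrays of female mice and reached at most 7.17.

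The arrays matched their regional labels. Ppp1r1b, a marker of striatal projection neurons, lay between 12.12 and 13.4 in striatum and at most at 10.24 elsewhere, the cortical gene Tbr1 lay between 10.92 and 11.98 in cortex, and the Purkinje cell gene Pcp2 between 13.71 and 14.43 in cerebellum. Pcp2 reached 11.31 on replicate 1 of 4b-treated wild-type striatum, against 9.51 on the next striatal array. Tbr1 reached 9.3 on replicate 4 of transgenic control striatum, against 8.48 on the next. The mean level of 10 choroid plexus markers ran from 7.53 to 10.5 in striatum, 6.88 to 8.59 in cortex and 7.56 to 10.49 in cerebellum. Granulocyte markers averaged 12.73 on replicate 4 of wild-type control cerebellum. The arrays came from 6 BeadChips, and in striatum and in cortex the 2 control genotypes shared none, so no BeadChip gives their difference directly. Treated arrays link the BeadChips. Values with BeadChip as a term are given below for Cox6a2 and some other respiratory chain genes. Marker genes and the other gene lists were fitted without that term.

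In control mice 1 respiratory chain gene was called between the genotypes in the main fit, which had no term for BeadChip. Cox6a2, the heart and muscle isoform of complex IV subunit 6A, was lower in transgenic striatum and in transgenic cortex, and these control calls did not all hold with BeadChip as a term. In striatum its level was 11.12, 11.16, 11.28 and 10.9 in the wild-type mice and 10.62, 10.45, 10.68 and 10.76 in the transgenic mice. The groups did not overlap, and the transgenic level was 1.40-fold lower (log2 difference -0.48, SE 0.10, limma adjusted p = 0.0113). In cortex the levels were 11.6, 11.6, 11.8 and 11.43 in wild type against 10.74, 11.09, 10.89 and 10.57 in transgenic mice. Every transgenic array was again below every wild-type array, a 1.72-fold difference (log2 difference -0.78, SE 0.11, limma adjusted p = 6.08e-04). In tissue RNA fewer cells of a type and less RNA per cell cannot be told apart. A difference between the striatal and cortical effects did not pass the test (0.30 on the log2 scale, 95% interval -0.55 to 1.15, adjusted p = 1), and the interval includes effects of unlike size. The spread in that fit includes cerebellum, where Cox6a2 varied more, so the test cannot decide whether the effects differ. No respiratory chain gene was called for a genotype effect that differed between striatum and cortex (0.265% of all genes called), striatum and cerebellum (1.11%) or cortex and cerebellum (0.398%).

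**Figure D1:**
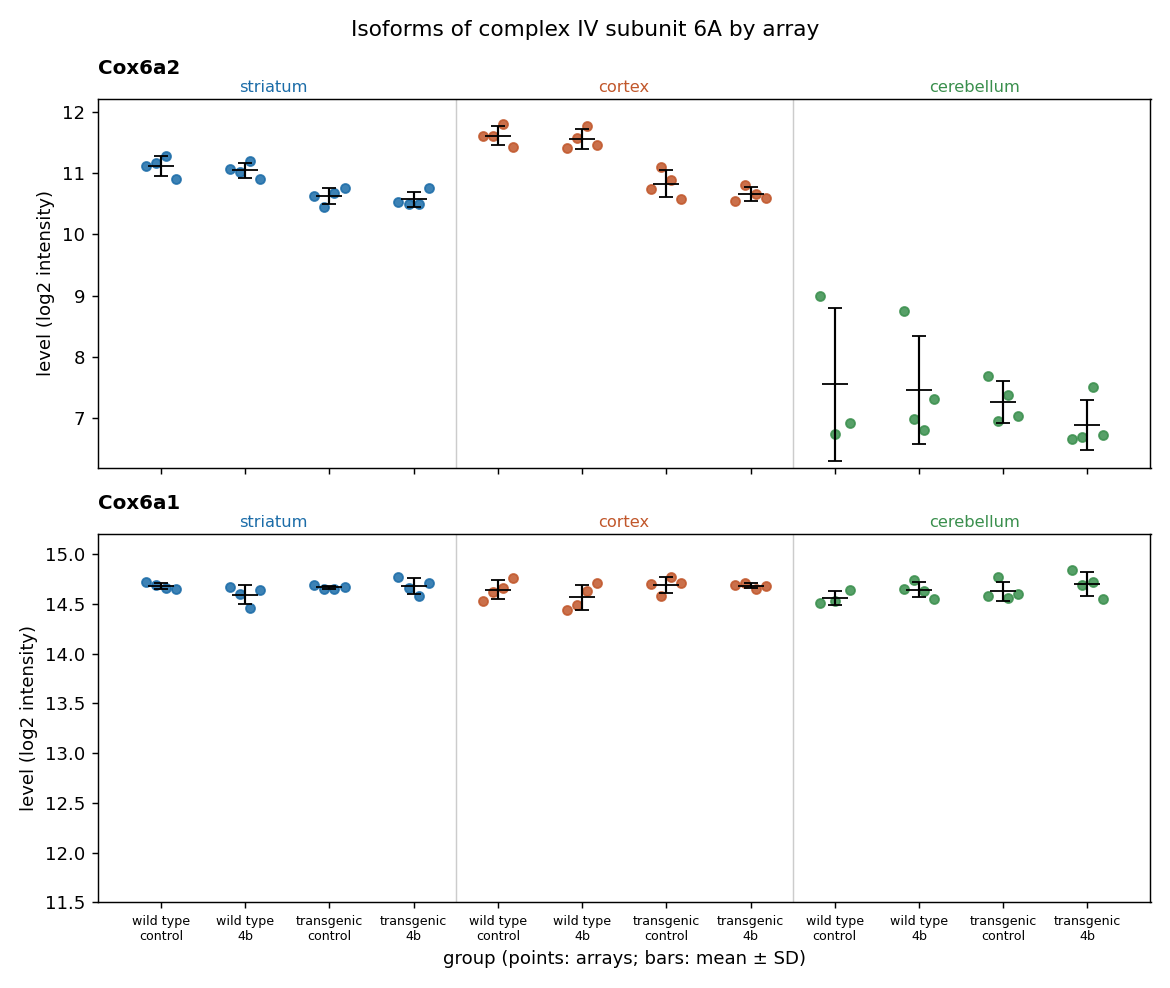
Level (log2 intensity) of Cox6a2 (upper panel) and Cox6a1 (lower panel) on each of 47 arrays, with the mean and SD of each group. Cox6a2 is lower in transgenic than in wild-type striatum and cortex under both treatments and lies between 6.66 and 8.99 in cerebellum, while Cox6a1 stays between 14.44 and 14.84.

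The partner isoform Cox6a1 lay between 14.44 and 14.84 on all 47 arrays. Its genotype difference in control mice was -0.01 (SE 0.07, adjusted p = 0.948) in striatum and 0.05 (SE 0.07, adjusted p = 0.814) in cortex on the log2 scale. In cerebellum Cox6a2 was dim, at 8.99, 6.75 and 6.92 in wild-type and 7.69, 6.96, 7.38 and 7.04 in transgenic control mice, where 8.99, 7.69 and 7.38 lay above the 7.17 reached by the background genes. These groups overlapped, and the difference did not pass the test (-0.29, SE 0.50, adjusted p = 0.886).

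The mice given 4b, which share no array with the control mice, also had lower Cox6a2 in the transgenic animals. Treated wild-type striatum had 11.06, 11.02, 11.19 and 10.9, and treated transgenic striatum had 10.52, 10.5, 10.5 and 10.76. The groups did not overlap (log2 difference -0.47, SE 0.10, limma adjusted p = 0.0129). Treated wild-type cortex had 11.41, 11.57, 11.77 and 11.46, and treated transgenic cortex had 10.55, 10.81, 10.65 and 10.59. These were also apart (log2 difference -0.90, SE 0.11, limma adjusted p = 2.1e-04). Within BeadChips that held both treated genotypes the difference was -0.86 and -0.83 in cortex and -0.29 in striatum, each from 1 or 2 arrays a side.

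No call of Cox6a2 was lost on leaving out any 1 array, the striatal arrays with high Pcp2 or Tbr1 included. The array with Tbr1 at 9.3 had the highest Cox6a2 of its group, 10.76. In control striatum it was lost without the arrays whose choroid plexus markers reached 9 (log2 difference -0.49, adjusted p = 0.108), a setting added after the data were seen. With arrays scaled to equal medians in place of quantile normalization, the striatal calls were lost (log2 differences -0.35, adjusted p = 0.191, in control mice and -0.43, adjusted p = 0.13, under 4b) and the cortical calls held. With BeadChip as a term over all arrays, where the spread includes cerebellum, all 4 were lost, at -0.41 (adjusted p = 0.542) and -0.61 (adjusted p = 0.397) in control and treated striatum and -0.52 (adjusted p = 0.477) and -0.89 (adjusted p = 0.12) in control and treated cortex. With that term over striatum and cortex arrays alone, a fit added after the data were seen, cortex held at -0.74 (adjusted p = 0.013) and -0.90 (adjusted p = 1.44e-04), and striatum did not, at -0.43 (adjusted p = 0.0989) and -0.48 (adjusted p = 0.0562). With that term among the arrays of each region alone, likewise added, treated cortex held at -0.84 (adjusted p = 0.0112). Control cortex fell to -0.32 (adjusted p = 0.476), and control and treated striatum gave -0.46 (adjusted p = 0.215) and -0.30 (adjusted p = 0.611), none of them called. All of these differences were negative.

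Some neuronal markers were lower where Cox6a2 was lower, and others were not. In control transgenic striatum 5 of 7 tested markers of medium spiny neurons were lower (list median -0.94), and in control transgenic cortex 3 of 5 markers of excitatory neurons were lower (list median -0.35) and 3 of 5 astrocyte markers (list median -0.33). Tac1 in control striatum was at -0.02 (adjusted p = 0.971). Pvalb, the parvalbumin gene, had a log2 difference of -0.38 (adjusted p = 0.488) in control striatum and -0.31 (adjusted p = 0.0584) in control cortex. Under 4b Pvalb had 0.24 (adjusted p = 0.702) in striatum, opposite in sign to Cox6a2, and -0.27 (adjusted p = 0.093) in cortex. Sst, the gene of another interneuron class, fell by 0.46 on the log2 scale in control cortex (adjusted p = 0.00711). Acta1, a muscle actin and the only muscle marker tested in cortex, fell there by 0.46 on the log2 scale (adjusted p = 0.0265). The part of these markers in the Cox6a2 result was not tested, and the marker values come from fits without a BeadChip term.

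No other respiratory chain gene was called in control mice in the main fit. The call was 1 of 75 in striatum, where 3.76% of all genes tested were called, 1 of 75 in cortex, against 5.05%, and none in cerebellum, against 0.664%. At an unadjusted p under 0.05 the limma counts were 6, 7 and 1. No share of all genes stands beside these counts, so nothing is read from them. With array weights, also without BeadChip, Cox7a1 (0.396, adjusted p = 0.0273) and Ndufaf1 (0.333, adjusted p = 0.0375) were called in striatum as well. With BeadChip as a term over all arrays the calls were other genes, Ndufs7 (-0.365, adjusted p = 0.0172) and Ndufv3 (0.335, adjusted p = 0.0332) in striatum and Cox7b (-0.565, adjusted p = 0.00938), Ndufb2 (-0.74, adjusted p = 0.0374) and Sdhd (-0.53, adjusted p = 0.0192) in cortex. Over striatum and cortex arrays they were Atp5k, Ndufs7, Ndufv3 and Uqcrb in striatum and Atp5k, Cox6a2, Cox7b and Ndufb2 in cortex. Among the arrays of each region they were none in striatum and Sdhd in cortex (-0.93, adjusted p = 0.0432). The genes lay on both sides of 0, with 32 above and 43 below in striatum, 36 and 39 in cortex, and 39 and 36 in cerebellum. Median scaling turned the striatal split to 53 above and 22 below and the cerebellar split to 58 and 17, so no direction is given for the family as a whole. The medians were -0.02, -0.01 and 0.00, beside 0.01, 0.01 and 0.03 over all genes. The 95% interval lay within 1.5-fold in either direction for 68 of the 75 genes in striatum (90.7%, all genes 83.8%), 70 in cortex (93.3%, all genes 88%) and 66 in cerebellum (88%, all genes 73.2%).

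**Figure D2:**
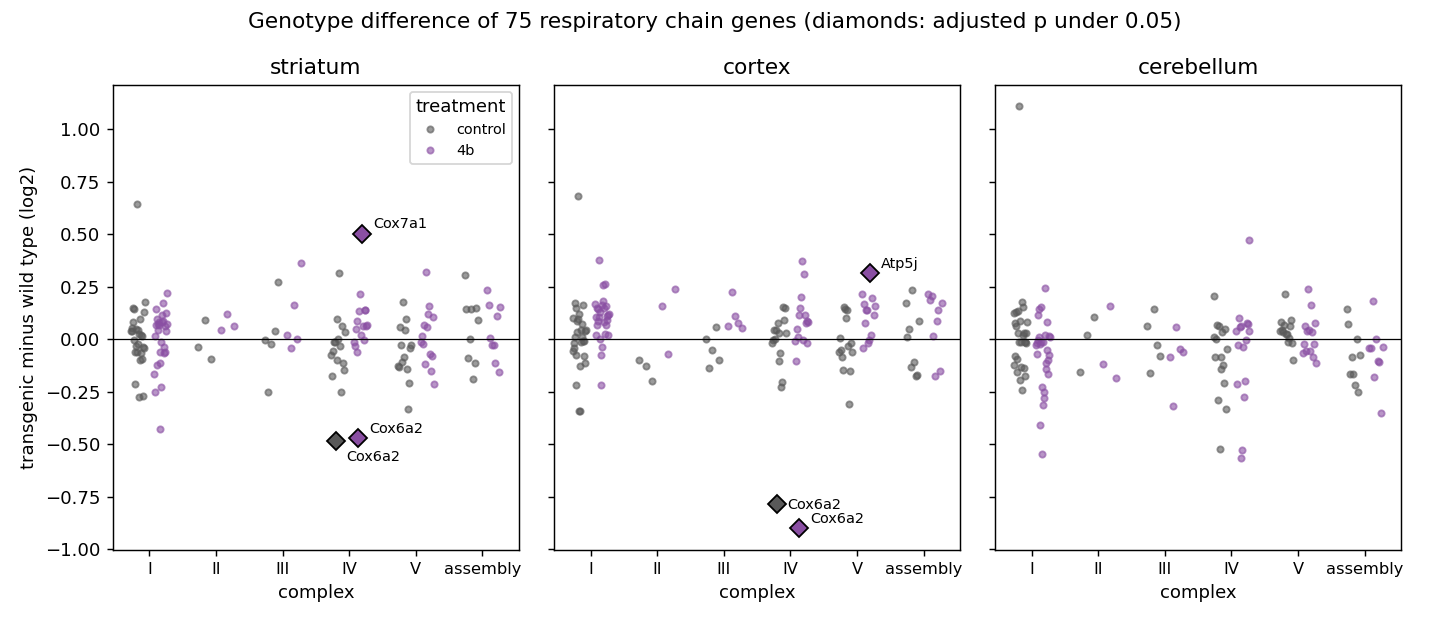
Log2 difference, transgenic minus wild type, of the 75 tested genes (points) by complex in each region, for control (grey) and 4b-treated mice (purple). Diamonds mark the calls: Cox6a2 in striatum and cortex under both treatments, Cox7a1 in treated striatum and Atp5j in treated cortex.

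Complex by complex, the smallest p-values outside subunit 6A missed the threshold, though some passed it in other fits. In complex I, the core subunit Ndufs7 was at 13.01, 12.89, 13.12 and 13.07 in wild-type and 12.88, 12.77, 12.68 and 12.67 in transgenic striatum. These groups did not overlap, by a narrow margin (log2 difference -0.27, SE 0.09, adjusted p = 0.129), and Ndufs7 was called with BeadChip as a term over all arrays and over striatum and cortex arrays (-0.34, adjusted p = 0.028) but not among striatal arrays alone (-0.47, adjusted p = 0.12). Ndufs4, an accessory subunit whose loss in mice gives a Leigh-like disease, had a difference of 0.16 (adjusted p = 0.192) in cortex. Its other probes gave 0.01 and -0.06 there. Ndufb11, an accessory subunit of the membrane arm, had -0.19 (adjusted p = 0.582) in cerebellum. In complex II, the membrane anchor Sdhd had -0.095 (adjusted p = 0.743) in striatum and -0.20 (adjusted p = 0.407) in cortex, and the iron-sulfur subunit Sdhb -0.16 (adjusted p = 0.677) in cerebellum. Median scaling turned the striatal Sdhd difference to 0.03, and both BeadChip fits that called cortical Sdhd more than doubled its size.

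In complex III, Uqcrb, which binds the ubiquinone site, was at 10.3, 10.48, 10.56 and 10.51 in wild-type and 10.07, 10.18, 10.23 and 10.37 in transgenic striatum. The groups overlapped (log2 difference -0.25, SE 0.09, adjusted p = 0.128), and the fit with BeadChip over striatum and cortex called it (-0.48, adjusted p = 0.0245). The hinge protein Uqcrh had -0.10 (adjusted p = 0.462) in cortex, and the core protein Uqcrc1 0.145 (adjusted p = 0.698) in cerebellum. In complex V, Atp5k, the e subunit, had -0.33 (adjusted p = 0.339) in striatum and -0.31 (adjusted p = 0.273) in cortex, and that same fit called both (-0.64, adjusted p = 0.0437, and -0.80, adjusted p = 0.0224). Atp5g1, one of 3 genes for the c ring, had 0.22 (adjusted p = 0.44) in cerebellum. Among assembly factors, Ndufaf1, a complex I assembly factor, had 0.305 (adjusted p = 0.103) in striatum, Ndufaf7 0.23 (adjusted p = 0.193) in cortex, and the complex II factor Sdhaf1 -0.22 (adjusted p = 0.425) in cerebellum. The Sdhaf1 probe was dim, with a mean of 7.03 over all arrays, below the 7.17 reached by the background genes. Ndufaf1 was called with array weights (0.33, adjusted p = 0.0375) and without replicate 3 of transgenic control striatum (0.41, adjusted p = 0.0134).

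The smallest cerebellar p belonged to Cox6b2, known as the testis isoform of complex IV subunit 6B. Its dim probe read 7.88, 7.99 and 7.67 in wild-type and 7.67, 6.96, 7.29 and 7.38 in transgenic control mice, groups that met at 7.67 (log2 difference -0.52, SE 0.155, adjusted p = 0.153). In treated mice it read 8.09, 8.18, 7.93 and 8.38 in wild-type and 7.49, 7.61, 7.83 and 7.54 in transgenic cerebellum. These groups did not overlap (log2 difference -0.53, SE 0.14, adjusted p = 0.1). A still dimmer probe of Cox6b2 gave -0.17 in control and 0.04 in treated cerebellum. The treated comparison was called with array weights (-0.48, adjusted p = 0.014), with BeadChip as a term over all arrays (-0.54, adjusted p = 0.0239) and in a fit of the compared groups alone (-0.53, adjusted p = 0.0273).

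Under 4b the genotype comparison called Cox6a2 and 1 other gene in striatum and in cortex. The counts were 2 of 75 in striatum, where 4.41% of all genes were called, 2 of 75 in cortex, against 5.48%, and none in cerebellum, against 1.44%. At an unadjusted p under 0.05 they were 6, 13 and 4, again without a share of all genes, and are not read further. In striatum Cox7a1, the muscle isoform of complex IV subunit 7A, was higher in transgenic mice. It read 8.85, 8.38, 8.59 and 8.58 in treated wild-type and 9.16, 8.94, 9.07 and 9.23 in treated transgenic mice. The groups did not overlap (log2 difference 0.50, SE 0.12, limma adjusted p = 0.0212). Control striatum was ordered alike, with 8.44, 8.91, 8.88 and 8.62 in wild-type and 8.94, 8.99, 9.06 and 9.12 in transgenic mice, but did not pass the test (0.32, SE 0.12, adjusted p = 0.148). With array weights Cox7a1 was called in control striatum (0.396, adjusted p = 0.0273).

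The Cox7a1 call was near the threshold. It was lost under median scaling (0.52, adjusted p = 0.0914), with BeadChip as a term among striatal arrays (0.54, adjusted p = 0.362) and without replicate 1 or 4 of the treated transgenic group (adjusted p = 0.0602 and 0.0658) or replicate 2 or 4 of the treated wild-type group (adjusted p = 0.0747 and 0.0598). Within the only BeadChip that held both treated striatal genotypes the difference was 0.64. The cortical differences were -0.065 in control and 0.00 in treated mice, and the test of striatum against cortex in control mice gave 0.38 (95% interval 0.01 to 0.75, adjusted p = 0.952). The partner isoform Cox7a2, between 9.43 and 10.76 on all arrays, had -0.03 in control and 0.06 in treated striatum.

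In cortex Atp5j, which encodes coupling factor F6 of complex V, was higher in treated transgenic mice. It read 10.6, 10.77, 10.76 and 11 in wild-type and 11.1, 11.04, 11.06 and 11.18 in transgenic mice, with no overlap (log2 difference 0.31, SE 0.08, limma adjusted p = 0.0394). In control cortex the groups overlapped, at 10.79, 11.01, 10.89 and 10.76 against 10.97, 10.92, 11.08 and 11.03 (0.14, SE 0.08, adjusted p = 0.413). The call was lost in 15 of 22 alternatives, among them every leave-out but that of replicate 4 of the treated wild-type group. The mean of its probes gave 0.19 (adjusted p = 0.291). In treated cortex 61 of the 75 genes were above 0 (25 of 28 in complex I, 5 of 5 in complex III and 11 of 14 in complex V), with a median of 0.11 beside 0.02 over all genes. Such splits in control striatum and cerebellum depended on the normalization, and no share of all genes above 0 is given. No direction is therefore read from this split.

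Control and treated mice gave the genotype difference the same sign for 40 of 75 genes in striatum (53.3%, all genes 70.9%), 34 in cortex (45.3%, all genes 64.7%) and 47 in cerebellum (62.7%, all genes 63.2%). Of the 6, 7 and 1 genes with an unadjusted p under 0.05 in control mice, 4, 1 and 1 also had one in treated mice. Cox6a2 was among them in striatum and was the 1 gene in cortex.

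No respiratory chain gene was called for 4b itself in either genotype or any region, and 0% of all genes were called. With BeadChip as a term Sdhd was called in wild-type mice, in opposite directions, at 0.50 (adjusted p = 0.0428) in cerebellum over all arrays and -0.79 (adjusted p = 0.0373) in cortex among cortical arrays. At an unadjusted p under 0.05 the limma counts over striatum, cortex and cerebellum were 0, 1 and 5 in transgenic and 3, 11 and 4 in wild-type mice. These too have no share of all genes beside them and are not read further. In transgenic mice 4b left Cox6a2 at a log2 difference of -0.06 (95% interval -0.27 to 0.15) in striatum and -0.17 (95% interval -0.41 to 0.06) in cortex. Both intervals include 0. The test of whether the genotype difference depended on 4b gave 0.01 (adjusted p = 0.999) in striatum and -0.12 (adjusted p = 0.907) in cortex for Cox6a2. That test called 0% of all genes and none of the 75 in any region.

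The smallest p for 4b was that of Sdhc, a membrane anchor of complex II, in transgenic cerebellum. It read 13.17, 13.34, 13.09 and 13.12 in control and 13.63, 13.63, 13.45 and 13.47 in treated mice. The groups did not overlap, but the difference did not pass the test (0.36, SE 0.09, adjusted p = 0.579), as for Atp5j there (0.29, SE 0.09, adjusted p = 0.798). Choroid plexus markers moved with these values, at 7.56 to 8.09 in control and 9.65 to 10.49 in treated transgenic cerebellum, and their part was not tested. In wild-type striatum Uqcrb read 10.21, 10.15, 10.01 and 10.14 with 4b and 10.3, 10.48, 10.56 and 10.51 without with no overlap (log2 difference -0.33, SE 0.09, adjusted p = 1). In wild-type cortex 55 of 75 genes were below 0 with 4b (median -0.06), and Atp5e, the epsilon subunit, had the smallest p there (-0.285, adjusted p = 0.451). This split uses the same treated wild-type cortical arrays as the genotype comparison under 4b, so the splits are not independent. No direction is read from it.

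Between the regions of wild-type control mice 13 of 75 respiratory chain genes were called for striatum against cortex, where 30.3% of all genes were called. For striatum against cerebellum 17 of 75 were called, beside 44.4% of all genes, and for cortex against cerebellum 17 of 75, beside 42.9%. The counts were 11 without replicate 3 of control striatum in the first of the cerebellar comparisons and 11 without replicate 4 of control cerebellum, the array with granulocyte markers at 12.73, in the other. Striatum was above cortex for 11 (14.6% of all genes higher) and below for 2 (15.7% lower). In complex I 7 genes were higher in striatum, among them Ndufa1 (0.39, SE 0.09, limma adjusted p = 4.41e-04), Ndufs4 (0.39, SE 0.08, adjusted p = 2.79e-04) and Ndufa5 (0.36, SE 0.11, adjusted p = 0.00773), with Ndufa10 lower (-0.24, adjusted p = 0.00435). In complex III Uqcrb was higher in striatum (0.35, adjusted p = 0.0208), as was the assembly factor Ndufaf4 (0.43, adjusted p = 0.00609). No complex II or complex V gene was called there. Median scaling left 6 calls, 3 in each direction, so the split of directions depended on the normalization. Among wild-type control arrays cerebellum shared no BeadChip with striatum or cortex, and striatum and cortex shared only BeadChip 6. Regional differences given here and below come from fits without a BeadChip term, so region and BeadChip are largely confounded in them. With that term over all arrays 7 genes were called for striatum against cortex, 5 higher and 2 lower.

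**Figure D3:**
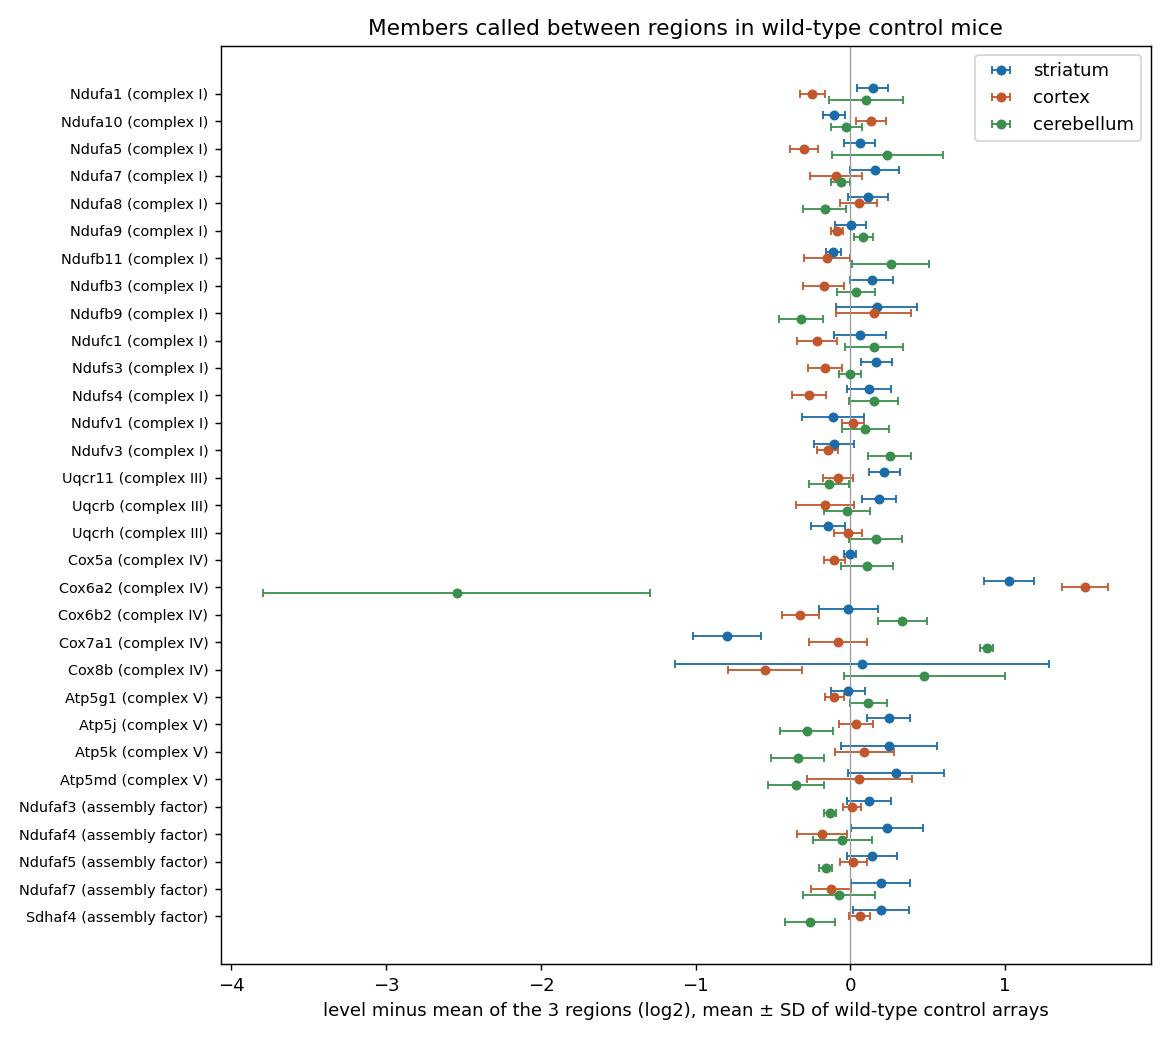
Level minus the mean of the 3 regions (log2) of each gene called between regions in wild-type control mice, as the mean and SD of 4 striatal, 4 cortical and 3 cerebellar arrays. Cox6a2 spans the widest range, with cerebellum lowest, and Cox7a1 runs the other way, from 8.71 in striatum to 10.39 in cerebellum.

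The largest called differences between striatum and cerebellum were in 2 isoforms of complex IV, in opposite directions. Cox6a2 averaged 11.12 ± 0.16 (SD, n = 4) in striatum, 11.61 ± 0.15 (SD, n = 4) in cortex and 7.55 ± 1.25 (SD, n = 3) in cerebellum. It was higher in striatum (3.56, SE 0.32, limma adjusted p = 2.16e-12) and cortex (4.05, SE 0.32, adjusted p = 6.54e-14) than in cerebellum. On 2 of the 3 cerebellar arrays the level lay within the range of the background genes, so these differences are not exact sizes, and without the third, replicate 1, they were 4.28 and 4.77. Striatum and cortex did not differ past the threshold (-0.49, SE 0.30, adjusted p = 0.227), although every striatal level lay below every cortical level. The fit took in all regions, and its residual SD of 0.44 exceeded the SDs within striatum and cortex. The test therefore cannot decide whether striatum and cortex differ. For the comparisons with cerebellum the same 0.44 was below the SD of 1.25, so their SEs and p-values are not exact. Both were called in all 18 alternatives. The cerebellar spread came from replicate 1 of wild-type control, at 8.99, and replicate 1 of treated wild type, at 8.75, had the next level. Every other cerebellar array lay between 6.66 and 7.69. Tbr1 was at 6.83 and 6.76 on those arrays, within the 6.57 to 7.14 of all cerebellar arrays. By whole lists replicate 1 of wild-type control stood apart from the other cerebellar arrays. Its markers averaged 9.31 for cortical excitatory neurons (others 8.3 to 9.05), 8.55 for medium spiny neurons (others 7.87 to 8.38), 13.03 for oligodendrocytes (others 11.92 to 12.63) and 10.39 for cerebellum (others 10.53 to 10.93), with choroid plexus markers at 10.31. On replicate 1 of treated wild type the first and second of these lists and the cerebellar list were at 8.56, 7.96 and 10.73, inside the range of the others. The part of these lists in the Cox6a2 levels was not tested.

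Cox7a1 rose from striatum to cortex to cerebellum. It read 8.44, 8.91, 8.88 and 8.62 in striatum, 9.25, 9.31, 9.67 and 9.48 in cortex and 10.41, 10.42 and 10.34 in cerebellum. No group overlapped another. The differences were -0.71 (SE 0.13, limma adjusted p = 2.15e-05) for striatum against cortex, -1.68 (SE 0.14, adjusted p = 2.01e-13) for striatum against cerebellum and -0.97 (SE 0.14, adjusted p = 2.39e-07) for cortex against cerebellum. The ubiquitous partners Cox6a1 and Cox7a2 had differences of at most 0.12 in size between any regions, none called. Cox4i1 and Cox8a likewise were not called.

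Striatum was above cerebellum for 11 genes (21.7% of all genes higher) and below for 6 (22.6% lower), and cortex above for 5 (21.4% higher) and below for 12 (21.5% lower). Atp5j (0.53, adjusted p = 2.12e-05), Atp5k (0.59, adjusted p = 0.0178) and Atp5md (0.65, adjusted p = 0.00994) were higher in striatum, and Atp5j (0.32, adjusted p = 0.00818) in cortex. In complex I, Ndufb9 was higher in both (0.50, adjusted p = 0.00918, and 0.47, adjusted p = 0.0145), and Ndufv3 (-0.36, adjusted p = 0.0018, and -0.40, adjusted p = 7.3e-04) and Ndufb11 (-0.37, adjusted p = 0.0101, and -0.41, adjusted p = 0.00499) were lower in both. Cortex was lower than cerebellum for 7 complex I genes and higher for 2. Ndufa5 (-0.54, adjusted p = 1.77e-04) and Ndufs4 (-0.42, adjusted p = 1.76e-04), both higher in striatum than cortex, were among the 7. On their other probes cortex and cerebellum lay closer, at 8.78 and 8.86 for Ndufa5. For Ndufs4 they lay at 12.31 and 12.48, and at 11.97 and 12.06. Striatum stayed above cortex on these probes, at 9.18, 12.7 and 12.3. The dimmer probe of Ndufv3 read 7.87 in striatum, 7.6 in cortex and 7.93 in cerebellum. Sdhaf4, a complex II assembly factor, was higher in striatum (0.455, adjusted p = 2.13e-04) and cortex (0.315, adjusted p = 0.00921). Uqcrh was lower in striatum than cerebellum (-0.31, adjusted p = 0.018), and Cox6b2 lower in striatum (-0.35, adjusted p = 0.0375) and cortex (-0.66, adjusted p = 1.36e-04). Median scaling left 11 calls, 8 higher and 3 lower, for striatum and 9, 5 higher and 4 lower, for cortex.

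Cox8b, the muscle isoform of complex IV subunit 8, moved with choroid plexus RNA on some arrays. It was lower in wild-type control cortex, at 7.55, 7.94, 7.55 and 7.99, than in cerebellum, at 9.38, 8.52 and 8.46 (-1.03, SE 0.33, limma adjusted p = 0.0106). Choroid plexus markers averaged 6.94 to 7.32 on those cortical arrays and 7.84 to 10.31 on those cerebellar arrays, and their part was not tested. In striatum, replicate 2 of wild-type control had Cox8b at 10.15 and choroid plexus markers at 10.5, while the other striatal arrays had Cox8b between 7.46 and 8.6. As a description over arrays that share groups and BeadChips, Pearson's r was 0.86 in striatum (n = 16, Spearman's rho 0.39), 0.35 in cortex (n = 16, rho -0.2) and 0.7 in cerebellum (n = 15, rho 0.7). The striatal r stands beside a far lower rho and 1 distant array.

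**Figure D4:**
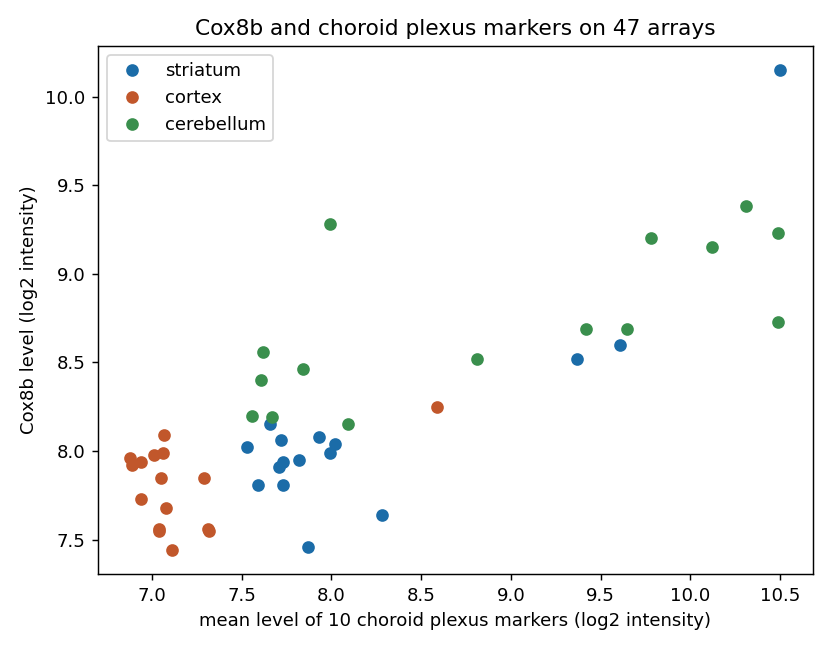
Cox8b level against the mean level of 10 choroid plexus markers (both log2 intensity) on 47 arrays, coloured by region. The striatal array at 10.5 and 10.15 stands far from the other striatal arrays, and the cortical arrays stay at or below 8.59 on the horizontal axis.

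Ndufb10, an accessory subunit of complex I encoded on chromosome 17 and singled out after its values were seen, had levels of 2 kinds. On 9 of the 47 arrays it lay between 7.94 and 8.89 and on the other 38 between 10.23 and 11.91, with none between. The low arrays were 1 in each of the 9 groups other than the 3 transgenic control groups. They were labelled female in the wild-type control and treated transgenic groups and male in the treated wild-type groups, in all 3 regions. The genotype differences in control mice, 0.64 (adjusted p = 0.683) in striatum, 0.68 (adjusted p = 0.704) in cortex and 1.11 (adjusted p = 0.643) in cerebellum, did not pass the test. They set groups with 1 low array against groups with none.

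**Figure D5:**
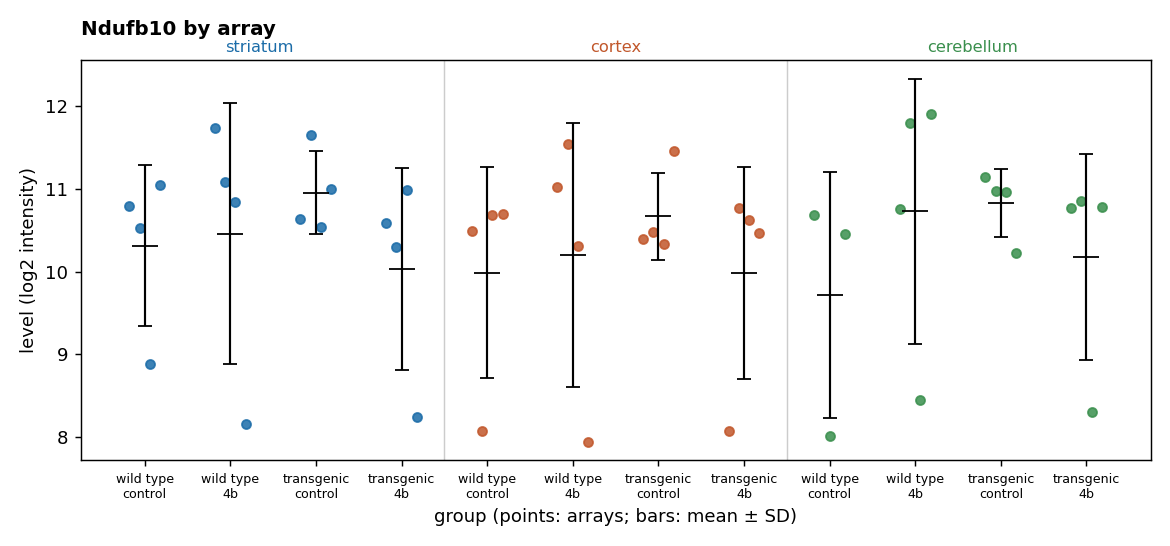
Level of Ndufb10 (log2 intensity) on each of 47 arrays, with the mean and SD of each group. In each of 9 groups 1 array lies between 7.94 and 8.89, and the transgenic control groups have no array below 10.23.

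The genes whose deviations from their group means were most like those of Ndufb10 over the 47 arrays were all on chromosome 17. The 10 nearest were Abhd16a, Zfp871 and Wdr46 (each r = 0.97), Ring1 (0.94), Zbtb22 (0.93), Zfp870 and Clcn7 (each 0.92), Ddr1 (0.9), H2-T22 (0.88) and Cyp4f14 (0.87). Chromosome 17 held 482 of the 10222 tested genes with a chromosome, or 4.72%. For every other respiratory chain gene at most 3 of the 10 nearest genes were on its own chromosome.

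Other genes of mitochondrial energy metabolism were compared between the genotypes in lists of related function. Of all genes tested, 3.76% were called in control striatum, 5.05% in control cortex and 0.664% in control cerebellum. Under 4b these shares were 4.41%, 5.48% and 1.44%. Nothing is read from the counts below about a list as a whole. In control striatum 1 of 14 regulators of mitochondrial biogenesis was called: Ppargc1b, a coactivator of respiratory chain genes, fell by 0.41 on the log2 scale (limma adjusted p = 0.0386), and under 4b by 0.51 (adjusted p = 0.0112). In control cortex Ckmt1, mitochondrial creatine kinase, fell by 0.29 (adjusted p = 0.018; 1 of 11 carriers and channels) and Aldoc, an aldolase of astrocytes, by 0.51 (adjusted p = 0.0044; 1 of 14 glycolysis genes). None of 9 electron carriers, 22 assembly factors of complexes III to V or 14 genes of the citric acid cycle and pyruvate dehydrogenase was called in control mice. Under 4b, transgenic cortex had lower Cox15, a heme A synthase (-0.46, adjusted p = 0.00381), Ckmt1 (-0.36, adjusted p = 0.00381) and Ppargc1a (-0.44, adjusted p = 0.0404), and higher Surf1 (0.38, adjusted p = 0.0102) and Coa7 (0.29, adjusted p = 0.043), the last 2 being complex IV assembly factors. No gene of these lists was called for 4b itself, where 0% of all genes were called. The values of these lists come from fits without a BeadChip term.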

How the data were processed

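Total RNA of 3 brain regions was measured on Illumina bead arrays. The submitters' processing notes name BeadStudio, with version and settings not given in the sources used here. As deposited by the authors, the files hold linear probe intensity values before normalization and a table of log2 values, which differed from quantile-normalized log2 intensities computed here by at most 0.0547. A sample column that matched no sample (1 in all) was not used. Intensities were corrected with normexp (offset 50), quantile-normalized over 47 arrays and taken to log2 with limma 3.58.1 in R 4.3.3. Median intensity per array ran from 122.2 to 289.3, and the number of arrays limits the precision. Each gene was represented by its brightest probe, and genes above the 40th percentile of a region's means were tested by lmFit and eBayes, two-sided, with Benjamini-Hochberg adjustment over all genes tested and a threshold of 0.05. Genotype, 4b and their interaction were fitted within each region, and regions over all 47 arrays. The fits were tested on simulated data with independent normal values and no BeadChip effect, so that test says nothing about BeadChip. Python 3.11.15 with matplotlib 3.10.9 made the figures.

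The genes, complexes and lists were chosen with earlier results of these data known. Named genes were those called for genotype or treatment, the smallest p per complex and region in the control genotype comparison, isoform pairs, the 5 largest regional differences each way, and up to 3 genes per pathway list; Ndufb10 and some further genes in sentences on counts were chosen after their values were seen. Alternatives were other normalization, filters, probes, weights, blocks, covariates and leaving out arrays. Within a region, same-number arrays of groups that differ in genotype or treatment come from different mice. Of 46 such pairs 13 had residuals correlated above 0.1 (range -0.31 to 0.29), and 17 were of unlike sex. Whether arrays of different regions share animals was not tested, and the regional comparisons take the arrays as separate.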

Additional observations from a re-analysis of the deposited data

Results flagged for a closer look

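In 165 groups of 4 arrays over 15 genes, 16 had an array far from the other 3, where chance gives about 1 in 20. For Cox6a2 these were replicate 4 of treated transgenic striatum, at 10.76 with the nearest at 10.52, and replicate 3 of treated transgenic cerebellum, at 7.51 with the nearest at 6.73. For Ndufb10 they were replicate 2 of wild-type control cortex at 8.08, replicate 1 of treated transgenic cortex at 8.07 and replicate 3 of treated transgenic cerebellum at 8.31, each below arrays of 10.49, 10.47 and 10.77 or more, and replicate 4 of transgenic control cortex at 11.46, above 10.48. Cox8b was at 9.28 on replicate 1 of transgenic control cerebellum (next 8.2) and at 8.69 on replicate 1 of treated transgenic cerebellum (next 9.15).

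The remaining isoforms lay far out by small amounts. Cox4i1 was at 14.51 on replicate 2 of transgenic control cerebellum (nearest 14.61). Cox6b1 was at 14.53 on replicate 3 of treated transgenic striatum (nearest 14.44) and at 14.62 on replicate 2 of treated transgenic cerebellum (nearest 14.55). Cox6b2 was at 7.45 on replicate 4 of treated transgenic striatum (nearest 7.29), and Cox8a at 13.97 on replicate 2 of treated wild-type striatum (nearest 14.33). Among genes for subunit c, Atp5g2 was at 11.69 on replicate 4 of treated transgenic cortex (nearest 11.38), and Atp5g3 at 14.41 on replicate 3 of treated wild-type cortex (nearest 14.52) and at 14.72 on replicate 2 of transgenic control cerebellum (nearest 14.39).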

How the results depend on the processing

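Over 14 alternatives other than leaving out single arrays, 234 of 265 counts of called genes stayed within 1.5 times and 31 did not. The cause was not tested. Counts of 0 that stayed at 0 are among the 234, and an equal count can hold other genes. With BeadChip as a term among cortical arrays, the control cortex call was Sdhd in place of Cox6a2. The 234 is therefore no measure of how stable the calls were. Median scaling gave 0 for control striatum, 1 for treated striatum, 1 for treated cortex, 6 for striatum against cortex, 11 for striatum against cerebellum and 9 for cortex against cerebellum, and it turned Sdhd in control striatum to 0.029. Treated cortex gave 1 with no filter, with the mean of all probes, with the replicate block and with the compared groups only. Array weights gave 3 for control striatum, 3 for treated cerebellum and 11 for striatum against cerebellum. A fixed block for BeadChip over all arrays gave 2 for control striatum, 3 for control cortex, 0 for treated cortex, 1 for treated cerebellum, 1 for 4b in wild-type cerebellum and 7 for striatum against cortex. The compared groups only gave 1 for treated cerebellum, 9 for striatum against cerebellum and 11 for cortex against cerebellum. Of settings added after seeing the data, leaving out arrays with choroid plexus markers of 9 or more gave 0 for control striatum, and the BeadChip block over striatum and cortex gave 4 for control striatum, 1 for treated striatum, 4 for control cortex and 1 for treated cortex. The BeadChip block among the arrays of each region gave 0 for control striatum, 0 for treated striatum, 1 for treated cortex and 1 for 4b in wild-type cortex. Leaving out 1 array gave 1 to 2 for control striatum, 1 to 1 for control cortex, 1 to 2 for treated striatum and for treated cortex, 10 to 14 for striatum against cortex, 11 to 20 for striatum against cerebellum, 11 to 18 for cortex against cerebellum, and 0 to 0 for the other comparisons. The replicate block, where numbers share only a number, also called Atp5g1 in treated striatum (0.321, adjusted p = 0.0437). Signal over background limits the dim genes Sdhaf1, Cox4i2, Cox6b2, Cox8b and cerebellar Cox6a2, and the 8 untested genes.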

Other observations

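Some regulators of mitochondrial biogenesis were called between cerebellum and forebrain in wild-type control mice. Of 14 tested, 7 were lower in cortex than in cerebellum and none higher, where 21.5% of all genes were lower and 21.4% higher, among them Ppargc1b (log2 difference -1.21, SE 0.13, limma adjusted p = 7.65e-10), Polg2, the accessory subunit of the mitochondrial DNA polymerase (-0.99, SE 0.105, adjusted p = 2.16e-10), and Polrmt, the mitochondrial RNA polymerase (-0.64, SE 0.09, adjusted p = 1.96e-07). Striatum was lower than cerebellum for 6 and higher for 1, where 22.6% of all genes were lower and 21.7% higher. Nothing is read from these counts about the list as a whole. Of 14 glycolysis genes 6 were lower in striatum than in cortex and 1 higher, where 15.7% of all genes were lower and 14.6% higher, with Pfkl, a phosphofructokinase subunit, at -0.61 (SE 0.09, adjusted p = 7.01e-07) and the hexokinase Hk1 at -0.57 (SE 0.12, adjusted p = 2.53e-04). Hk2, the hexokinase of muscle and fat, was lower than in cerebellum by -1.87 in striatum (SE 0.14, adjusted p = 1.78e-14) and -1.38 in cortex (SE 0.14, adjusted p = 9.71e-11). The lists were chosen with earlier results of these data known.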
